A study of Mus musculus with 7 samples.

Results

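The genes described here are 41 genes of glucose uptake, glycolysis, lactate handling and the cellular response to low oxygen, measured in sorted Tim4+ macrophages of the mouse peritoneal cavity. They were taken by symbol from a table of read counts for 57010 genes. Every symbol was found, and Aldoa matched 2 identifiers, so 42 rows of the table belong to the set. The count filter passed 41 of the 42 rows, out of 15981 genes tested, and the row of Eno2 did not pass.

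RNA came from peritoneal fluid cells of C57BL/6 mice, from which macrophages had been sorted by their staining for CD11b, Tim4 and MHC class II. One group was 3 libraries from control mice in steady state, and the other was 4 libraries from mice that had been injected with m204 MTO and were sampled on day 12. The labels give no genotype, age or sex beyond the strain, do not spell out MTO or m204, and name peritoneal colorectal cancer in the title of the series. The labels call the replicates biological, but one protocol speaks of 3 per condition where the titles give 4 for day 12, and they do not say whether animals were pooled. P-values therefore measure the spread between these libraries.

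In glycolysis a cell takes up glucose through transporters of the GLUT family, traps it by phosphorylation, splits it into triose phosphates and turns these into pyruvate, gaining ATP without oxygen. Lactate dehydrogenase can reduce the pyruvate to lactate, which leaves the cell through monocarboxylate transporters. When oxygen is short, the prolyl hydroxylases that mark the alpha subunits of hypoxia-inducible factor (HIF) for destruction slow down, and HIF, paired with ARNT, switches on many genes of glucose uptake and glycolysis. In macrophages the same genes are also known to respond to inflammatory signals.

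At day 12, 17 of the 41 tested rows were higher and 3 were lower than in steady state (edgeR quasi-likelihood test, Benjamini-Hochberg adjusted p under 0.05 over all genes tested), and 21 did not pass. Over all 15981 genes, 10.1% were called higher and 10.2% lower. Of the rows for glycolysis and lactate genes, 14 of 27 rose and 1 fell, and of those for the HIF pathway and other hypoxia-inducible genes, 3 of 14 rose and 2 fell. The median log2 fold change of the 41 rows was 0.41, against 0.00 for all genes tested, and 10 rows rose at least 2-fold. Gapdh is among these 10 by its own row, but rose 1.92-fold once reads of its near-identical copies were added. The members were chosen with earlier results of these data known, so their contrast with all genes is a description only. In 19 rows all 4 day 12 libraries lay above all 3 of steady state, and in 3 rows all lay below, whereas such separation was found in 16.5% (higher) and 18.5% (lower) of all genes. The number of rows called higher was 11 without steady-state replicate 1 or 3, 12 without steady-state replicate 2, and 15 to 18 without any 1 of the day 12 libraries.

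**Figure D1:**
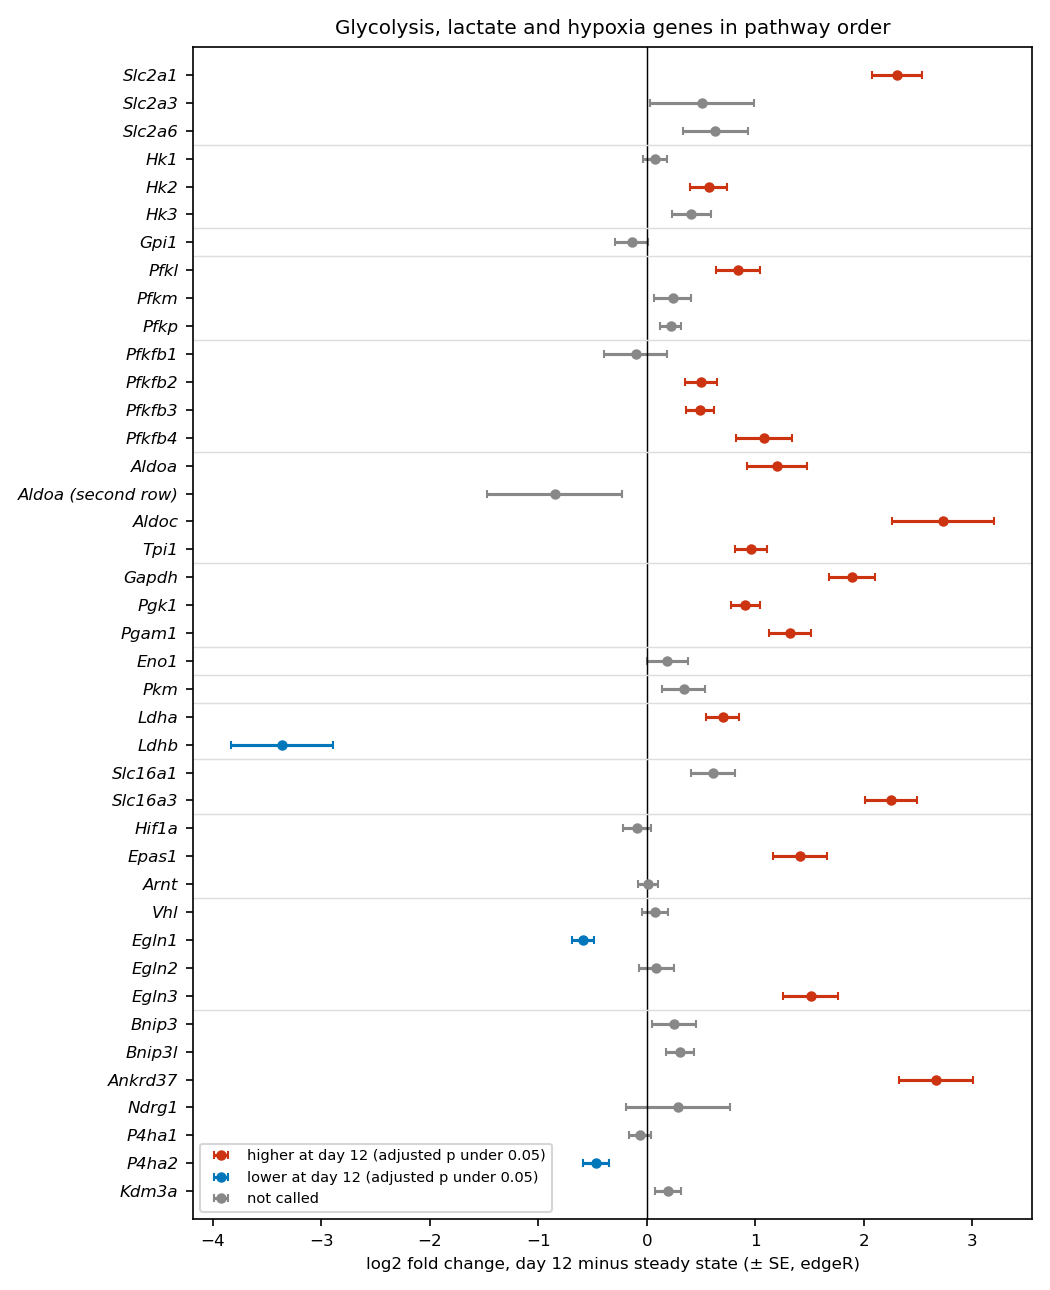
Log2 fold change of each tested row at day 12 against steady state (horizontal axis, with its standard error from edgeR) in pathway order, from glucose transport at the top to hypoxia-inducible genes at the bottom. The largest rises were those of Aldoc (2.73), Ankrd37 (2.67), Slc2a1 (2.31) and Slc16a3 (2.25), and the largest fall was that of Ldhb (-3.36).

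Libraries held 32077050 to 38586694 counts, and the detection floor of 3 counts came to 0.0777 to 0.0935 CPM (counts scaled to a common library size with TMM factors). This floor covers counting error only. The 42 rows took 0.382% to 0.414% of the counts of a steady-state library and 0.530% to 0.766% of a day 12 library, with the highest share in day 12 replicate 4. Summed markers of Tim4+ resident peritoneal macrophages came to 24800 to 26300 CPM in steady state and 26000 to 27200 CPM at day 12. The near-level sum hides changes of single genes, as 4 of these 10 markers rose and 1 fell. Summed markers of macrophages in general came to 46400 to 48300 and 9750 to 16700 CPM, and of their 7 genes 2 rose and 2 fell. Their median log2 fold change was 0.18, so the fall of the sum was not shared by most of these genes. Summed markers of other cells moved in both directions. The 9 B cell markers came to 6.67 to 10.3 and 21.5 to 48.7 CPM (6 of 9 tested rose), and the 7 dendritic cell markers to 29.7 to 54.9 and 65.9 to 380 CPM (1 of 3 tested rose, Siglech at 0 in all libraries). The 12 epithelial or colorectal tumour markers came to 0.140 to 0.356 and 2.09 to 3.22 CPM (1 of 2 tested rose), with Krt20, Cdx2 and Lgr5 at 0 in all libraries. The 9 neutrophil markers came to 432 to 449 CPM in steady state and 110 to 198 CPM at day 12 (2 of 3 tested fell), nearly all of it Csf3r (440.2 ± 8.41 and 159.6 ± 39.9 CPM), with Ly6g at 0 in all libraries. The 7 monocyte markers came to 53.1 to 62.8 and 27.0 to 185 CPM (of 5 tested, 2 rose and 2 fell). Markers of eosinophils, mast cells, T and NK cells, mesothelial cells or fibroblasts, and red blood cells each summed to at most 3.39 CPM in any library. Of 11 genes of the response to cell dissociation, 7 rose and 2 fell, and their sum was 966 to 1300 CPM in steady-state libraries and 1500 to 1780 CPM in day 12 libraries. The part of these cells and of the handling in the results below was not tested, and in bulk RNA fewer cells of a type and less RNA per cell cannot be told apart.

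HIF binds DNA at short elements built around the letters ACGTG or GCGTG. The 250 bases before annotated gene starts were therefore searched for them on both strands, in RefSeq promoters of the build GRCm38.p6, which is not the GRCm39 build of the count table. The promoter table held 37 of the 41 genes, with 57 start windows, and Slc2a3, Epas1, Bnip3l and Ndrg1 were not matched. At least 1 of the motifs occurred in 44 of the 57 windows (77.2%), against 38.6% of all 32851 windows of the table. The member windows were also richer in G and C (median 60.4% against 52.4%). Motifs were found in 91.3% of 23 windows of genes that rose, in 3 of 3 windows of genes that fell and in 66.7% of 30 windows of genes that were not called. These windows came from 16, 3 and 17 genes, several with more than 1 start, so they are not independent. By gene, only Tpi1 among those that rose, and only Gpi1 and Vhl among those not called, had no match in any window. The window shares are therefore not read as a difference between the groups. A match is a description of letters, not a bound site. The sequences below are shown because their genes carry the main results: the lactate-forming enzyme and the lactate exporter, a glycolytic enzyme with a strong promoter, 2 hypoxia-inducible genes, and the gene that fell furthest. Capitals mark ACGTG or GCGTG or the reverse complement of either, and each sequence runs 5′ to 3′ up to the base before the annotated start.
Ldha, chr7:46845554-46845803, plus strand: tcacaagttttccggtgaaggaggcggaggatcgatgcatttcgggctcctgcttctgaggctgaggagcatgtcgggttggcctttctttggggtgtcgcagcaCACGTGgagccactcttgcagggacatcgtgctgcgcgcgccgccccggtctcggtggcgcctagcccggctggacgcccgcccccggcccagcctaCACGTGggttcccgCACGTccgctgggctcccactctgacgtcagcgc
Pgk1, chrX:106186850-106187099, plus strand: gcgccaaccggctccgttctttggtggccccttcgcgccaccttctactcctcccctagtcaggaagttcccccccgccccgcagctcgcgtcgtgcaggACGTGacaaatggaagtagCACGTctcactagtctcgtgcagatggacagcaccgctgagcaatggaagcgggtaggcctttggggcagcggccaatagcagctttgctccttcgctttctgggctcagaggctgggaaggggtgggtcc
Slc16a3, chr11:120948817-120949066, plus strand: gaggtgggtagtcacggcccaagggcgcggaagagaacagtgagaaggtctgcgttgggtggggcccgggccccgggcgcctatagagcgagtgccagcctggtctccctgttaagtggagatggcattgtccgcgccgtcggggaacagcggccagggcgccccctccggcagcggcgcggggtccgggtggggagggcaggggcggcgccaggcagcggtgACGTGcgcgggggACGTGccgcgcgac
Egln3, chr12:54203875-54204124, minus strand: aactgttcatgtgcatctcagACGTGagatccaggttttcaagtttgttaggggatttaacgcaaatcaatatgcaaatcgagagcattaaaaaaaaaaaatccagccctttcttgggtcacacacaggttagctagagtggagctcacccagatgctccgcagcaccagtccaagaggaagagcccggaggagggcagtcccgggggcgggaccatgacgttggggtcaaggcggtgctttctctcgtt
Ankrd37, chr8:45999851-46000100, minus strand: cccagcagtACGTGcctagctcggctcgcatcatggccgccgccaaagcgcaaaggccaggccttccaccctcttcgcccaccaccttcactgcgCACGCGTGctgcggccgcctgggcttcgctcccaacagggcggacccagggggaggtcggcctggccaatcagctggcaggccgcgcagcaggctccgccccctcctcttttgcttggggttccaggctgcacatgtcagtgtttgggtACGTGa
Ldhb, chr6:142507958-142508207, minus strand: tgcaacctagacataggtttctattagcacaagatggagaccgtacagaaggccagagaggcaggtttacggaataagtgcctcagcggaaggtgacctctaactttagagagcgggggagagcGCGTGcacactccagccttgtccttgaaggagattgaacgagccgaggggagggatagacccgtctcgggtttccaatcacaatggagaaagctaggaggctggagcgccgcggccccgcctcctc

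The printed Ldha window held 5 matches, and a second Ldha window 1. The 5 began 145, 144, 48, 47 and 34 bases before the start, and the paired positions are the palindrome CACGTG read on each strand. The Slc16a3 window had ACGTG 27 and 14 bases before the start, and that of Pgk1 had matches at 150 and 131 bases. Ankrd37 had 4 matches, at 241, 155, 152 and 6 bases. Egln3 had 1 at 229 bases. Ldhb, which fell, had a single GCGTG at 126 bases. The printed windows of members that rose thus held between 1 and 5 matches, at varied places. The window of Tpi1, which also rose, and 1 of the 3 windows of Aldoa held none.

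Of the 3 glucose transporter genes, 1 rose. Slc2a1 (ENSMUSG00000028645, chromosome 4, 118965908 to 118995180) encodes GLUT1, the widespread basal glucose transporter. It stood at 11.5, 7.84 and 9.77 CPM in steady-state replicates 1, 2 and 3 and at 47.2, 33.8, 46.5 and 64.6 CPM in day 12 replicates 1, 2, 3 and 4. Every day 12 library lay well above steady state, with replicate 4 highest and replicate 2 lowest. On average it rose from 9.70 ± 1.82 (SD, n = 3) to 48.0 ± 12.7 CPM (SD, n = 4), a log2 fold change (log2 change below) of 2.31 (SE 0.23, edgeR adjusted p = 0.000257). Slc2a6, which encodes the related transporter GLUT6, held more transcript per length: 24.9 ± 0.654 CPM per kb of exon in steady state, against 2.77 ± 0.519 for Slc2a1. It did not pass the test (80.0 ± 2.10 and 123.6 ± 56.9 CPM, adjusted p = 0.183), and day 12 replicate 4 stood at 205.8 CPM while replicate 3 stood at 75.2 CPM, below all of steady state. Slc2a3, which encodes GLUT3, was scarcely detected, at 0.196 to 0.319 CPM in steady state and 0.174 to 0.500 CPM at day 12 (adjusted p = 0.498). As a share of the 3 genes per exon length, Slc2a1 took 8.40% to 11.3% in steady state and 21.6% to 36.1% at day 12, without overlap.

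**Figure D2:**
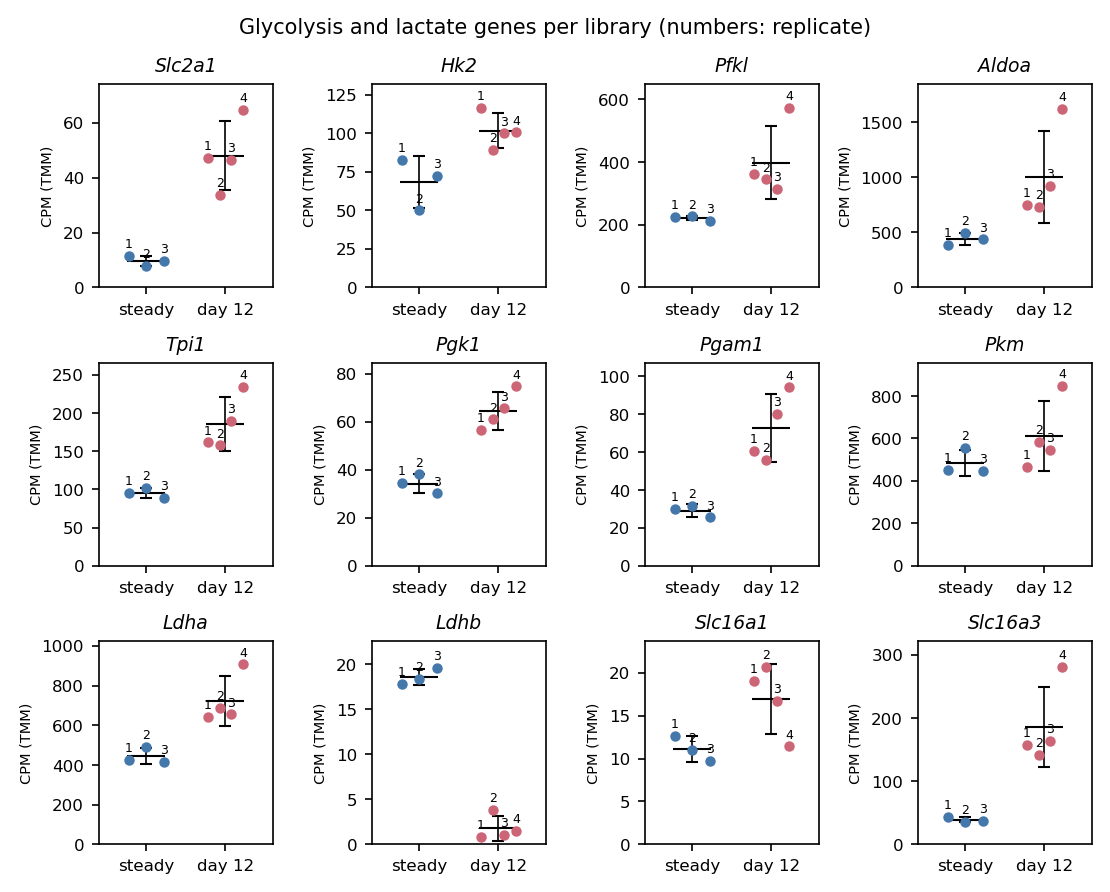
Level in CPM (vertical axis, starting at 0) of 12 glycolysis and lactate genes in each library, with numbers for the replicate, bars for the mean and whiskers for 1 SD (3 steady-state and 4 day 12 libraries). Replicate 4 was the highest day 12 library for Slc2a1 (64.6 CPM), Aldoa (1616 CPM) and Slc16a3 (280.5 CPM), and Ldhb is the panel in which all day 12 libraries lie below steady state.

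Of the hexokinases, which trap glucose as glucose 6-phosphate, only Hk2 passed the test. Hk2 (ENSMUSG00000000628, chromosome 6, 82702006 to 82751435), the inducible form, held 82.9, 49.9 and 72.3 CPM in steady state and 116.6, 89.2, 99.9 and 100.5 CPM at day 12. The groups did not overlap, but steady-state replicate 1 came close to day 12 replicate 2. Its mean rose from 68.4 ± 16.8 to 101.5 ± 11.3 CPM (log2 change 0.57, SE 0.17, edgeR adjusted p = 0.0441). This call was lost without steady-state replicate 2 or 3 or without day 12 replicate 1, 3 or 4 (adjusted p = 0.139, 0.110, 0.0969, 0.0700 and 0.0687). Hk1, the housekeeping form, stood at 196.9 ± 6.19 and 207.6 ± 21.9 CPM (adjusted p = 0.679). Hk3, found mainly in myeloid cells, stood at 91.7 ± 4.20 and 121.8 ± 32.3 CPM. Its day 12 libraries all lay above steady state, led by replicate 4 at 169 CPM, but it did not pass (adjusted p = 0.145). Gpi1, the isomerase that makes fructose 6-phosphate, stood at 352 ± 10.8 and 321 ± 63.6 CPM and did not pass (adjusted p = 0.567). Day 12 replicate 4 of Gpi1 held 415 CPM against 277 to 298 CPM in the other day 12 libraries, and without it Gpi1 was called lower (log2 change -0.28, adjusted p = 0.0173).

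At phosphofructokinase, the committed step, only the liver-type gene passed the test. Pfkl (ENSMUSG00000020277, chromosome 10, 77822781 to 77845917) held 226, 227 and 213 CPM in steady state and 364, 345, 314 and 572 CPM at day 12, with replicate 4 set apart above the others. The group mean rose from 222 ± 7.44 to 399 ± 118 CPM (log2 change 0.84, SE 0.20, edgeR adjusted p = 0.0165). Without steady-state replicate 1, 2 or 3 it did not pass (adjusted p = 0.0612, 0.0643 and 0.0762). The muscle-type gene Pfkm stood at 14.1 ± 0.416 and 16.7 ± 3.44 CPM (adjusted p = 0.347). The platelet-type gene Pfkp stood at 58.3 ± 1.30 and 67.96 ± 6.24 CPM, without overlap of the groups but also without passing (adjusted p = 0.160). Per exon length Pfkl made up 78.7% to 80.0% of the 3 genes in steady state and 81.7% to 88.5% at day 12. By reads alone its mean share was 75.4% in steady state and 82% at day 12.

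Of the 4 PFKFB genes, 3 rose. Their enzymes make and break fructose 2,6-bisphosphate, the activator of phosphofructokinase. Pfkfb4 (ENSMUSG00000025648, chromosome 9, 108820846 to 108861296) held 16.3, 14.96 and 16.3 CPM in steady state and 34.9, 21.1, 50.3 and 27.6 CPM at day 12. Its steady-state libraries were nearly level, whereas the day 12 libraries spread widely, with replicate 3 highest. The mean rose from 15.8 ± 0.757 to 33.5 ± 12.5 CPM (log2 change 1.08, SE 0.26, edgeR adjusted p = 0.0184). Pfkfb3, the form that acts mainly as a kinase, rose from 47.6 ± 6.99 to 67.0 ± 7.37 CPM (log2 change 0.49, adjusted p = 0.0274). Pfkfb2 rose from 14.4 ± 0.788 to 20.5 ± 3.44 CPM (log2 change 0.50, adjusted p = 0.0374). Pfkfb1 stood at 1.16 ± 0.312 and 1.08 ± 0.210 CPM and did not pass. These calls depended on the libraries. The adjusted p of Pfkfb4 was 0.0630, 0.0757 and 0.0661 without steady-state replicates 1, 2 and 3. That of Pfkfb3 was 0.121 and 0.108 without steady-state replicates 1 and 2. Pfkfb2 did not pass without any 1 steady-state library or without day 12 replicate 1 or 3 (adjusted p = 0.0803 to 0.148).

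Both aldolase genes and the triose phosphate isomerase gene rose. Aldolase splits the phosphorylated hexose, and triose phosphate isomerase makes both products usable. Aldoa (ENSMUSG00000030695, chromosome 7, 126394406 to 126399923) had the highest level per exon length among the members' own rows, 150 ± 18.5 CPM per kb in steady state and 345 ± 143 at day 12. Ldha came next in steady state at 134 ± 12.2 CPM per kb, within the spread of the libraries. Aldoa held 383, 491 and 436 CPM in steady state and 748, 731, 919 and 1616 CPM at day 12. All day 12 libraries lay above steady state, and replicate 4 far above the other day 12 libraries. On average it rose from 437 ± 53.8 to 1004 ± 417 CPM (log2 change 1.20, SE 0.28, edgeR adjusted p = 0.0154), and the call was lost without steady-state replicate 1 or 3 (adjusted p = 0.0711 and 0.0626). The second row named Aldoa (ENSMUSG00000114515), on the same strand next to the first, held only 2 to 21 reads in a library and did not pass (adjusted p = 0.379). Aldoc, known from brain, rose from 0.502 ± 0.190 to 3.34 ± 1.84 CPM (log2 change 2.73, SE 0.47, adjusted p = 0.00383), yet remained 0.254% to 0.331% of the pair per exon length at day 12. Tpi1 (ENSMUSG00000023456, chromosome 6, 124787549 to 124791259) held 95.7, 102.5 and 88.6 CPM in steady state and 162, 158, 189.9 and 235 CPM at day 12. All day 12 libraries lay above steady state, with replicate 4 highest. The log2 fold change was 0.96 (SE 0.15, adjusted p = 0.00258).

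The genes of the next steps, in which ATP and NADH are gained, all rose, and part of their sequence is shared with near-identical copies elsewhere in the genome. Gapdh oxidises glyceraldehyde 3-phosphate, Pgk1 makes the first ATP, and Pgam1 moves the remaining phosphate. The row of Gapdh (ENSMUSG00000057666, chromosome 6, 125138678 to 125143430) held 13.1, 9.22 and 10.9 CPM in steady state and 40.2, 28.3, 45.8 and 49.9 CPM at day 12 (log2 change 1.89, SE 0.21, edgeR adjusted p = 0.000477). Pgk1 (ENSMUSG00000062070, chromosome X, 105230706 to 105247305) held 34.6, 38.1 and 30.2 CPM and then 56.5, 61.1, 65.6 and 74.8 CPM (log2 change 0.91, SE 0.13, adjusted p = 0.00151). Pgam1 (ENSMUSG00000011752, chromosome 19, 41900362 to 41907099) held 30.1, 31.8 and 25.5 CPM and then 60.6, 55.8, 80.2 and 94.0 CPM (log2 change 1.32, SE 0.19, adjusted p = 0.00160). In each of these genes replicate 4 was the highest day 12 library and no day 12 library overlapped steady state. Gapdh also overlaps Iffo1 in the table.

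A transcript level of about 11 CPM for Gapdh, among the most used reference genes, led to a check of its copies, made after the values were seen. Stretches of 100 bases, the length of a read, were compared between transcripts of the members and of all other genes in GENCODE M21. Distinct stretches were pooled over all annotated transcripts of a gene (4958 for Gapdh). The shares are therefore not those of its main transcript. For Gapdh 20.9% of the stretches also occurred in another gene, for Pgk1 51.7%, for Pgam1 33.9% and for Bnip3 24.6%. The share was 20.4% for Eno1, 15.2% for Pfkfb2 and 14.0% for Bnip3l. Those of Pfkfb2 lay in Gm29427 and Yod1, which were not counted as its copies. Of 84 Gapdh copies at other loci, nearly all processed pseudogenes, 83 had a read. They shared from 1 (Gm5944) to 1031 (Gm7336) stretches with Gapdh, so some match it only in a small part. The copy with the most reads, Gm13394, shared 801. Together these copies held 214 ± 9.58 CPM in the steady-state libraries and 390 ± 107.5 CPM in those of day 12, which was 94.1% to 96.1% and 88.8% to 91.9% of the sum of gene and copies. With the copies added, Gapdh rose from 225 ± 8.45 to 431 ± 115 CPM, a log2 fold change of 0.94 (SE 0.19, edgeR adjusted p = 0.00762), so that the change came to 1.92-fold in place of 3.71-fold. Per exon length the summed reads of Eno1 came to 169 CPM per kb in steady state, above the row of Aldoa. For Pgk1, Pgam1 and Eno1 the fold was nearly as before (1.85, 2.51 and 1.16, against 1.88, 2.49 and 1.14 from their own rows). No source used here says how multi-mapping reads were counted, and the locus from which such reads came cannot be told apart. Adding the copies of all members with them left 17 rows higher and 3 lower.

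**Figure D3:**
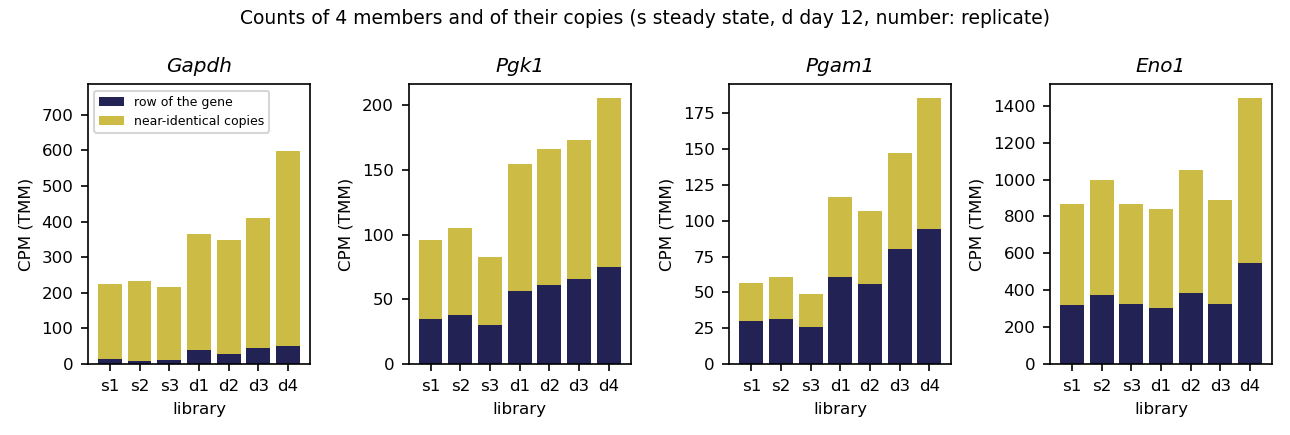
CPM (vertical axis, starting at 0) in each library on the row of Gapdh, Pgk1, Pgam1 and Eno1 (dark) and on their near-identical copies (light), stacked. Copies held 94.1% to 96.1% of the Gapdh sum in steady state, and 62.2% to 63.6% of the Eno1 sum at day 12.

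The last steps to pyruvate were not called. Eno1, the enolase gene of most tissues, stood at 342 ± 30.4 and 391 ± 109 CPM (log2 change 0.19, SE 0.19, edgeR adjusted p = 0.536), with day 12 replicate 4 at 545 CPM and the other day 12 libraries at 307 to 386 CPM. Most reads of this step fell on the copy Gm4735, with a mean of 527 CPM in the steady-state libraries and 593 CPM in those of day 12. Eno2, the enolase of neurons, had 0 to 6 reads in a library. Pkm, which encodes the pyruvate kinase of macrophages and most other cells, was among the most abundant members, at 96.8 ± 12.1 CPM per kb of exon in steady state. It stood at 484 ± 60.4 and 611 ± 166 CPM (log2 change 0.34, SE 0.20, adjusted p = 0.273), again with replicate 4 highest at 849 CPM. The table counts genes, so the splice forms PKM1 and PKM2 are not separated. Without day 12 replicate 4 the log2 fold change of Eno1 was -0.01.

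Lactate dehydrogenase changed in both directions. Ldha (ENSMUSG00000063229, chromosome 7, 46490899 to 46505051) encodes the subunit that favours making lactate. It held 426, 491 and 417 CPM in steady state and 641, 688, 655 and 906 CPM at day 12. The day 12 libraries lay above steady state without exception, and replicate 4 was highest. Its mean rose from 445 ± 40.5 to 723 ± 124 CPM (log2 change 0.70, SE 0.15, edgeR adjusted p = 0.0102). The call was lost without steady-state replicate 1 or 3 (adjusted p = 0.0551 and 0.0617). Ldhb (ENSMUSG00000030246, chromosome 6, 142435975 to 142453683) encodes the subunit of heart and other oxidative tissues, and its promoter with a single motif match is printed above. It held 17.8, 18.4 and 19.5 CPM in steady state and 0.795, 3.79, 1.08 and 1.51 CPM at day 12. Steady-state libraries were close to each other, and even the highest day 12 library, replicate 2, was far below them. The mean fell from 18.6 ± 0.893 to 1.79 ± 1.37 CPM, which was 10.3-fold lower (log2 change -3.36, SE 0.47, adjusted p = 0.00194), and the log2 fold change was -4.01 without day 12 replicate 2. Per exon length Ldhb made up 7.31% to 8.99% of the pair in steady state and 0.261% to 1.15% at day 12. The pseudogene Ldhb-ps, counted apart, stood at 3.10 and 0.338 CPM.

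Of the lactate transporters, Slc16a3 rose and Slc16a1 did not pass. Slc16a3 (ENSMUSG00000025161, chromosome 11, 120839306 to 120851694) encodes MCT4, the exporter of highly glycolytic cells. It held 44.2, 36.0 and 37.4 CPM in steady state and 157, 141, 164 and 280.5 CPM at day 12. The day 12 libraries formed a tight group apart from replicate 4, which was set well above them. The group mean rose from 39.2 ± 4.37 to 185.8 ± 63.9 CPM (log2 change 2.25, SE 0.24, edgeR adjusted p = 0.000405). Slc16a3 overlaps Csnk1d in the table, and no source used here gives the strand setting. Slc16a1, which encodes MCT1, held 12.7, 11.04 and 9.68 CPM and then 19.0, 20.7, 16.7 and 11.4 CPM (log2 change 0.61, SE 0.20, adjusted p = 0.0640). Replicate 4, the highest library for Slc16a3, was the lowest for Slc16a1. Without it Slc16a1 was called higher (log2 change 0.76, adjusted p = 0.00442), as it was with DESeq2 (adjusted p = 0.0283) and with no filter on low counts (adjusted p = 0.0430). Slc16a3 took 73.1% to 76.3% of the pair per exon length in steady state and 85.1% to 95.3% at day 12.

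**Figure D4:**
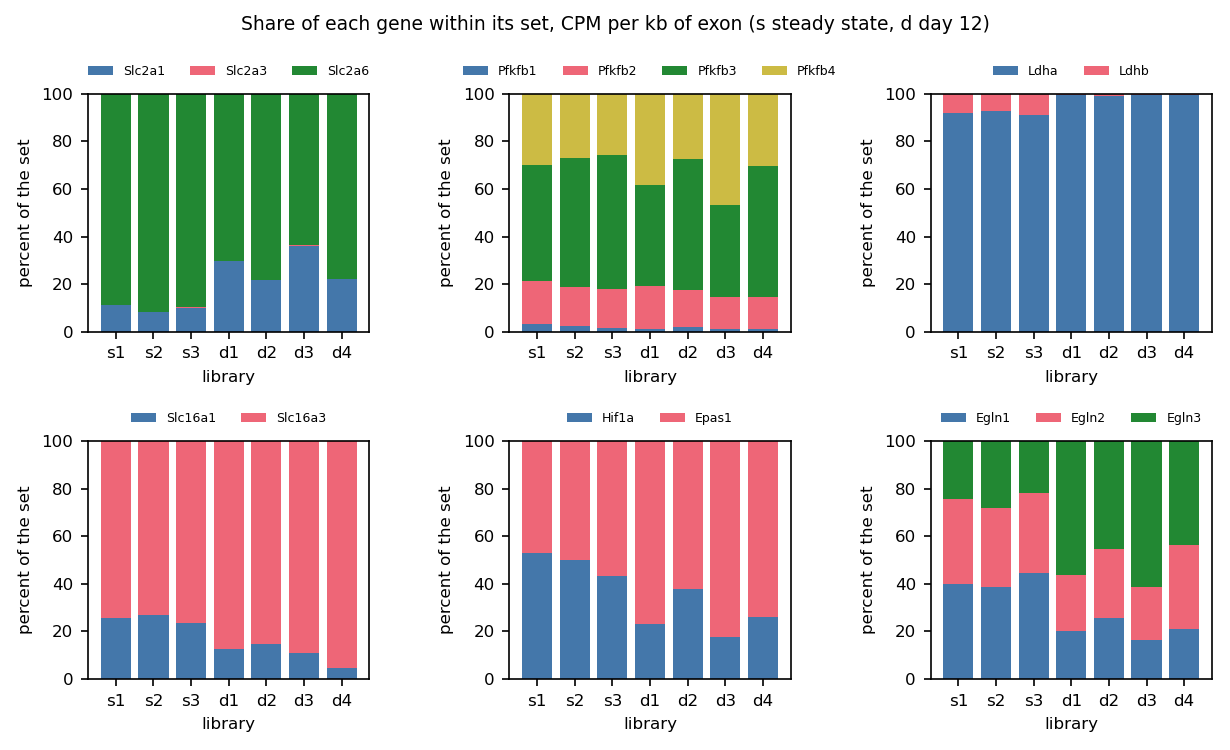
Share of each gene within 6 sets of related genes in each library (vertical axis, percent of the summed CPM per kb of exon), with steady-state libraries on the left of each panel. The shares of Slc2a1, Slc16a3, Epas1 and Egln3 are larger in all day 12 libraries than in any steady-state library, and that of Ldhb is 7.31% to 8.99% in steady state and at most 1.15% at day 12.

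Among the HIF subunits the transcript of HIF-2 alpha rose and that of HIF-1 alpha did not pass the test. Epas1 (ENSMUSG00000024140, chromosome 17, 87061128 to 87140838), which encodes HIF-2 alpha, held 87.2, 104.6 and 132 CPM in steady state and 324, 193, 387 and 243 CPM at day 12. The order of the day 12 libraries, with replicate 3 highest and replicate 2 lowest, differed from that of most glycolytic genes that rose, in which replicate 4 was highest. The mean rose from 108 ± 22.8 to 286 ± 85.9 CPM (log2 change 1.41, SE 0.25, edgeR adjusted p = 0.00405). Hif1a (ENSMUSG00000021109, chromosome 12, 73948149 to 73994304), which encodes HIF-1 alpha, held 104, 111 and 106 CPM and then 103, 123, 86.4 and 91.0 CPM (log2 change -0.09, SE 0.13, adjusted p = 0.681), so its groups overlapped. HIF-1 alpha is controlled mainly as a protein, which was not measured. The shared partner Arnt stood at 74.0 ± 2.71 and 74.7 ± 4.66 CPM (adjusted p = 0.943). Per exon length Epas1 made up 46.9% to 56.8% of the pair of alpha subunits in steady state and 62.3% to 82.5% at day 12.

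The prolyl hydroxylases that mark HIF moved apart. Egln3 (ENSMUSG00000035105, chromosome 12, 54225767 to 54250646), which encodes PHD3 and is itself a known HIF target, held 36.3, 42.4 and 33.5 CPM in steady state and 118, 69.1, 149.6 and 89.4 CPM at day 12. On average it rose from 37.4 ± 4.58 to 106.5 ± 35.0 CPM (log2 change 1.51, SE 0.25, edgeR adjusted p = 0.00299; with the replicate number as a block the call was lost, adjusted p = 0.0651), with the day 12 libraries in the same order as for Epas1. Egln1 (ENSMUSG00000031987, chromosome 8, 125635326 to 125676063), which encodes PHD2, the main oxygen sensor of the family, held 79.95, 79.6 and 92.5 CPM and then 57.0, 53.1, 54.5 and 58.4 CPM. These day 12 libraries were close together and all below steady state. The mean fell from 84.0 ± 7.35 to 55.7 ± 2.38 CPM (log2 change -0.59, SE 0.10, adjusted p = 0.00296). Egln2, which encodes PHD1, stood at 54.5 ± 1.01 and 57.96 ± 13.2 CPM (adjusted p = 0.745), and Vhl, the recognition subunit of the ligase that destroys marked HIF, at 12.4 ± 1.09 and 13.1 ± 1.00 CPM (adjusted p = 0.688). Per exon length Egln1 led the set of hydroxylases in steady state with 38.7% to 44.5%, and Egln3 led at day 12 with 43.5% to 61.1%.

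**Figure D5:**
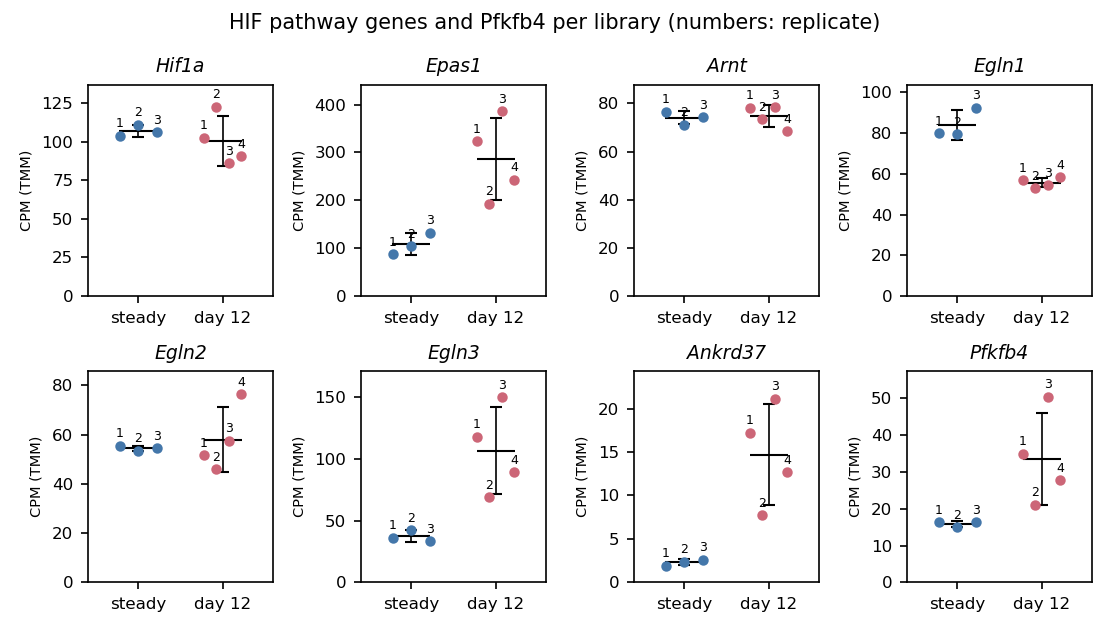
Level in CPM (vertical axis, starting at 0) of 7 HIF pathway genes and Pfkfb4 in each library, with numbers for the replicate, bars for the mean and whiskers for 1 SD (3 steady-state and 4 day 12 libraries). Epas1, Egln3, Ankrd37 and Pfkfb4 share the day 12 order of replicates 3, 1, 4 and 2, and Egln1 is lower in every day 12 library.

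Of the 7 other hypoxia-inducible members, 1 rose, 1 fell and 5 did not pass. Over all genes tested 10.1% were called higher and 10.2% lower, so nothing is read from these counts about the group. Ankrd37 (ENSMUSG00000050914, chromosome 8, 46449939 to 46458744), a small ankyrin-repeat protein gene and a known HIF target, held 1.93, 2.38 and 2.62 CPM in steady state and 17.2, 7.74, 21.1 and 12.7 CPM at day 12. Even the lowest day 12 library, replicate 2, was well above steady state. Its mean rose from 2.31 ± 0.351 to 14.7 ± 5.78 CPM (log2 change 2.67, SE 0.34, edgeR adjusted p = 0.000810), on a gene that overlaps Ufsp2 and Lrp2bp in the table. P4ha2 (ENSMUSG00000018906, chromosome 11, 53990921 to 54022491), a subunit of the collagen prolyl 4-hydroxylase, held 50.7, 45.9 and 48.9 CPM and then 33.5, 32.6, 32.1 and 41.4 CPM. It fell by 0.47 on the log2 scale (SE 0.12, adjusted p = 0.0192), and the call was lost without any 1 steady-state library or without day 12 replicate 1 or 2 (adjusted p = 0.0541 to 0.109). The related P4ha1 stood at 120.4 ± 5.72 and 115 ± 9.29 CPM (adjusted p = 0.709).

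The remaining members of this group are well-known HIF targets that did not pass. Bnip3 and Bnip3l encode receptors for the removal of mitochondria. Bnip3 stood at 7.26 ± 0.823 and 8.65 ± 2.19 CPM (edgeR adjusted p = 0.423) and Bnip3l at 130.4 ± 8.55 and 162 ± 23.1 CPM (adjusted p = 0.129). Bnip3l held 171, 166 and 182 CPM in day 12 replicates 1, 2 and 3 and 129 CPM in replicate 4, and was called higher without replicate 4 (log2 change 0.41, adjusted p = 0.00580). Ndrg1, a stress-response gene, stood at 4.04 ± 0.931 and 4.92 ± 3.61 CPM (adjusted p = 0.724), with replicate 3 at 10.2 CPM and the other day 12 libraries at 2.31 to 4.15 CPM. Kdm3a, a histone demethylase gene, stood at 78.1 ± 4.69 and 89.5 ± 11.7 CPM (adjusted p = 0.291).

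The day 12 libraries did not share one order over the members that rose. Replicate 4 was the highest day 12 library in 11 of the 17 rows, replicate 3 in 4 rows (Pfkfb4, Epas1, Egln3 and Ankrd37) and replicate 1 in 2 rows (Hk2 and Pfkfb2). Replicate 2 was the lowest in 13 rows. Over all 1616 genes called higher, replicate 4 was highest in 46.3% and replicate 3 in 26.2%, and replicate 2 was lowest in 38.5%. The order of replicates 3, 1, 4 and 2, found in 4 of the 17 rows, held for 147 of the 1616 genes (9.10%).

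Genes of neighbouring pathways, in 8 lists with 116 tested genes, were called higher in 23 cases and lower in 9. Over all 15981 genes tested, 10.1% were called higher and 10.2% lower. Of 28 other hypoxia-inducible genes, 11 rose and 1 fell, with a median log2 fold change of 0.33. The gene that fell was Trf, which encodes the iron carrier transferrin and was named after its values were seen. It fell from 6481 ± 693 to 4196 ± 327 CPM (edgeR adjusted p = 0.00889) and made up most of the list's summed level, which was 7080 to 8350 CPM in steady state and lower, 5400 to 6110 CPM, at day 12. The 3 with the lowest p were Bhlhe40, a transcriptional repressor (log2 change 1.23, edgeR adjusted p = 0.000353), Car12, a carbonic anhydrase that handles acid at the cell surface, which rose from 1.01 ± 0.339 to 32.0 ± 17.1 CPM (log2 change 4.98, adjusted p = 0.00104), and Vegfa, the growth factor for blood vessels, which rose from 0.446 ± 0.230 to 4.49 ± 1.99 CPM (log2 change 3.32, adjusted p = 0.00171). Of 12 other genes of oxygen sensing 1 rose and 0 fell, with a median of -0.10. The chaperone gene Hspa9 rose from 129 ± 8.13 to 185 ± 24.8 CPM (adjusted p = 0.0195), while Cited2 stood at 45.2 ± 5.77 and 32.6 ± 6.63 CPM (adjusted p = 0.0688) and Os9 at 342 ± 14.7 and 278 ± 22.5 CPM (adjusted p = 0.0744). The numbers over all 8 lists were 12 higher and 5 lower without steady-state replicate 1 or 3, 14 and 6 without steady-state replicate 2, and 34 and 18 without day 12 replicate 4.

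Of 13 other genes of glucose entry, glycolysis and lactate, 1 rose and 2 fell, with a median log2 fold change of 0.24. These counts, and those of the pentose phosphate and pyruvate lists that follow, lie near the shares over all genes (10.1% called higher and 10.2% lower), so nothing is read from them about the lists. Slc16a7, which encodes the high-affinity transporter MCT2, fell from 75.2 ± 2.96 to 31.0 ± 8.34 CPM (log2 change -1.28, edgeR adjusted p = 0.00185). Eno3, the enolase of muscle, fell from 5.41 ± 0.583 to 3.10 ± 0.575 CPM (adjusted p = 0.0217), and Tigar, which breaks down fructose 2,6-bisphosphate, rose from 7.06 ± 0.623 to 10.2 ± 1.46 CPM (adjusted p = 0.0416). In the pentose phosphate pathway, which branches off at glucose 6-phosphate, 2 of 12 rose and 0 fell, with a median of 0.08. Shpk, which phosphorylates sedoheptulose, rose from 5.12 ± 0.502 to 8.61 ± 0.627 CPM (adjusted p = 0.00760) and the transketolase gene Tkt from 194 ± 11.7 to 284 ± 60.6 CPM (adjusted p = 0.0376), while Pgd stood at 197 ± 7.32 and 266 ± 57.5 CPM (adjusted p = 0.0844). Of the 14 genes of pyruvate fate 2 rose and 0 fell, with a median of 0.15. These were Pdk1, also counted in the hypoxia list, a kinase that shuts off pyruvate dehydrogenase (from 66.7 ± 1.77 to 83.2 ± 2.79 CPM, adjusted p = 0.0306), and Pdhb, a subunit of that enzyme (from 43.9 ± 3.73 to 55.8 ± 2.57 CPM, adjusted p = 0.0370). Pdp1, which reverses the kinase, stood at 5.76 ± 0.338 and 3.93 ± 0.945 CPM (adjusted p = 0.101).

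Of 17 glycogen genes, 4 rose and 4 fell, with a median log2 fold change of 0.22, where 10.1% of all genes were called higher and 10.2% lower. Pgm1, which links glucose 6-phosphate to glycogen, rose from 17.9 ± 2.14 to 39.2 ± 5.04 CPM (edgeR adjusted p = 0.000698), whereas its relative Pgm2l1 fell from 44.6 ± 3.70 to 9.90 ± 2.25 CPM (adjusted p = 0.000128). Ppp1r3c, a subunit that brings a phosphatase to glycogen, fell from 3.12 ± 0.935 to 0.350 ± 0.0750 CPM (adjusted p = 0.000242). Of 4 tested gluconeogenesis genes, Pck2 fell from 23.0 ± 2.18 to 11.7 ± 3.69 CPM (adjusted p = 0.0142), G6pc3 rose from 16.01 ± 2.37 to 23.7 ± 3.35 CPM (adjusted p = 0.0256), and Pcx stood at 4.05 ± 0.423 and 5.95 ± 1.15 CPM (adjusted p = 0.0818). Of 17 regulators around MYC and mTOR, 2 rose and 1 fell, near the share over all genes, with a median of 0.03. They were Prkaa2, an alpha subunit of the energy sensor AMPK (from 1.13 ± 0.0849 to 15.5 ± 8.66 CPM, adjusted p = 0.00109), Pik3cd (from 174 ± 5.89 to 273 ± 64.8 CPM, adjusted p = 0.0263) and Mxd4, an antagonist of MYC, which fell from 257 ± 15.2 to 176.5 ± 16.1 CPM (adjusted p = 0.00741). Of the genes named here from the wider lists, the calls of Tigar, Eno3, Tkt, Pck2, G6pc3, Pdk1, Pdhb, Hspa9 and Pik3cd were each lost in at least 2 of the fits that left out 1 steady-state library, with adjusted p up to 0.180.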

How the data were processed

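The authors deposited unnormalised read counts, 1 row a gene and 1 column a library, with symbols and GRCm39 coordinates. Tools named per the submitters' processing notes include STAR 2.7.11a and featureCounts (Subread 2.0.6). No source used here names the annotation release, the strand setting or the handling of multi-mapping reads. This limits rows of overlapping genes (among them Slc16a3, Gapdh, Ankrd37, Tpi1, Hk3, Pfkp and Pfkfb2) and of genes with near-identical copies. Per the labels' protocols, libraries were poly-A selected and directional and gave 100-base single reads, and the sorted cells had a stated purity over 97%. Groups came from the sample titles.

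The counts of all 7 libraries were fitted with edgeR 4.0.16 (R 4.3.3; quasi-likelihood test, robust, TMM factors, filterByExpr with a minimum count of 10), with Benjamini-Hochberg adjustment over 15981 genes at 0.05. Standard errors were derived from each F statistic and its fold change. The procedure was tested on simulated data. Shares of related genes and levels per kb used union exon lengths of GENCODE M21, matched by Ensembl identifier. A union holds the exons of all annotated transcripts, so levels and shares compared between genes depend on it. Pfkp, with 13.4 kb, averaged 10.4% of its set per length and 19.8% by reads in steady state. The alternatives were edgeR with RLE factors, DESeq2 1.42.0, limma-voom (limma 3.58.1), no count filter, a filter of 1 CPM in 3 libraries, leaving out each library, the replicate number as a block and, added after the data were seen, the counts of near-identical copies added to their gene. A copy was a pseudogene with any shared stretch, or another gene with at least 100 shared stretches, that does not overlap the member. No label says that a replicate number marks a shared animal, litter or day, so the numbers were not taken as pairs. Deviations of same-numbered libraries correlated with r = -0.14, 0.01 and 0.20, and those of other pairs with r = -0.20 to 0.19. With so few libraries these values cannot exclude pairing. No 2 libraries of a group agreed within sampling noise.

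All 41 members were named, in pathway order, with the 3 genes of lowest p in each wider list. The members and lists were chosen with earlier results of these data known. Of the wider lists the symbols Gyg1, G6pc1 and Gpt1 matched no row. Promoters came from a RefSeq table. For a single start of each of the 37 matched genes, the first 40 bases after it were sought anywhere in the GENCODE transcripts of that gene. They were found for 30 genes, which checks orientation and not the place of the start.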

Additional observations from a re-analysis of the deposited data

Results flagged for a closer look

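In each of 42 rows and 28 shares of related genes, the day 12 library farthest from the others was set against the range of the 4 libraries. Chance alone marks about 1 group in 20. The gap exceeded the critical value of 0.829 for Gpi1, where replicate 4 was highest (gap over range 0.852), Slc16a3, where replicate 4 was highest (0.833), P4ha2, where replicate 4 was highest (0.852), Bnip3, where replicate 3 was highest (0.835), and Eno2, where replicate 1 had no read and the other 3 libraries 1 read each (0.866). Within the pair of lactate dehydrogenase genes, the share of Ldhb was higher in replicate 2 (1.15%) than in the other day 12 libraries (0.261% to 0.350%), and that of Ldha correspondingly lower (gap over range 0.900 for both).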

How the results depend on the processing

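Of the 20 called rows, 11 kept their call in all 14 alternatives (Slc2a1, Aldoc, Tpi1, Gapdh, Pgk1, Pgam1, Ldhb, Slc16a3, Epas1, Egln1 and Ankrd37), and 9 lost it in at least 1. With another scaling, tool or filter the members numbered 17 to 18 higher and 3 lower. With 1 library left out they numbered 11 to 18 higher and 2 to 4 lower, the wider lists 12 to 34 higher and 5 to 18 lower, and all genes 857 to 2188 higher and 904 to 2411 lower. Fits with 2 steady-state libraries have fewer samples. With the replicate number as a block, 18 members were higher and 4 lower. Egln3 lost its call (adjusted p = 0.0651), Gpi1, Slc16a1 and Bnip3l gained one, and the wider lists numbered 28 higher and 17 lower. The block changed no other call of a member. Day 12 replicate 4 has no steady-state library of the same number, so the block fit takes no fold change from it. The block estimates were close to those of the fit without replicate 4, as for Gpi1 (log2 change -0.29 and -0.28) and Slc16a1 (0.76 in both). Gpi1, Slc16a1 and Bnip3l also gained a call in the fit without replicate 4. Uncalled log2 fold changes that changed sign with 1 library left out ranged from -0.24 to 0.16 for Pfkfb1, -0.02 to 0.06 for Arnt, -0.10 to 0.01 for P4ha1, -0.35 to 0.54 for Ndrg1, -0.01 to 0.31 for Eno1 and -0.07 to 0.22 for Egln2, and the last 2 were -0.02 and -0.08 with the replicate block. The cause was not tested. Eno2, with 0 to 6 reads, lay near the floor of 3 counts, so that no change in it was detectable at this depth.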
